A study of Mus musculus with 67 samples.

Results

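Kruppel-like factors are zinc-finger transcription factors, and 8 of their genes were followed here: Klf2, Klf3, Klf4, Klf5, Klf6, Klf9, Klf10 and Klf17. They were taken by symbol from a table of 26414 genes, which also holds 8 other Klf genes. The 67 libraries came from C57BL/6 mouse embryos made by in vitro fertilisation from mothers 6 weeks and fathers 10 weeks old. The light group (34 libraries) received 5000 lx during 6 h as 2-cell embryos and was then kept in the dark, and the control group (33 libraries) was kept in the dark at 0 lx throughout. Each library was made by SMART-seq2 from 1 cell picked by hand after dissociation, and the labels number an embryo for each. Control and light libraries numbered 7 and 6 for 2-cell embryos, 6 and 8 for 4-cell embryos, 4 and 8 for 8-cell embryos, 13 and 6 for morulae, and 3 and 6 for blastocysts. The comparisons ask which of the 8 genes differed between light and control within a stage, and which changed from stage to stage in each group.

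Kruppel-like factors bind GC-rich boxes and CACCC elements through zinc fingers at their carboxyl end. Their amino-terminal parts differ, so that some members mainly activate and others recruit corepressors such as CtBP or SIN3. In mouse embryonic stem cells Klf2, Klf4 and Klf5 act within the circuit that maintains the naive pluripotent state, and Klf5 is also needed for the first lineages of the blastocyst.

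Total reads per library lay between 836011 and 8551674, of which 54.02% to 89.26% fell on 2 genes, CT010467.1 and Gm42418, which hold ribosomal RNA sequence. The other genes together had 318177 to 2867034 reads. A value below is the deposited one, the read count over the library's size factor, with no division by gene length. The size factors shift whole libraries: the median log2 fold change of all genes tested between light and control was 0.00 for 2-cell, 0.13 for 4-cell and 0.16 for 8-cell embryos, 0.10 in morulae and -0.64 in blastocysts. The ratio of reads on Gm42418 to reads on CT010467.1 lay between 2.34 and 4.03 in control and between 1.58 and 1.77 in light 2-cell libraries with no overlap, and the groups were also apart in it at the 8-cell stage (2.01 to 2.34 against 1.52 to 1.71) and in morulae (2.34 to 4.14 against 1.49 to 1.67). Defining cumulus and granulosa cell genes were summed in CPM, the reads scaled to a fixed sum outside the ribosomal genes. The 7 of 10 listed genes that the table holds summed to at most 47.7 CPM, in light 2-cell replicate 10. Group medians of this sum ran from 0 in control morulae to 11.8 CPM in light 2-cell libraries. Summed trophectoderm markers were 50.4 to 222 CPM in 2-cell and 987 to 14564 CPM in blastocyst libraries of both groups. The p-values measure the spread between these libraries, and whether cells of 1 group came from separate embryos was not tested.

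RefSeq promoter windows (GRCm38.p6, 250 bases before to 50 after the start of the gene) were available for 6 of the 8 genes, all but Klf5 and Klf10. The 3 shown belong to Klf2 and Klf9, which differed between light and control, and to Klf17, which fell from the 8-cell stage to the morula in both groups. Capitals mark CACCC or its reverse complement GGGTG and GGGCGG or its reverse complement CCGCCC, the elements that the family itself binds. The strand of the gene is given 5′ to 3′.
Klf2, chr8:72318812-72319111, plus strand: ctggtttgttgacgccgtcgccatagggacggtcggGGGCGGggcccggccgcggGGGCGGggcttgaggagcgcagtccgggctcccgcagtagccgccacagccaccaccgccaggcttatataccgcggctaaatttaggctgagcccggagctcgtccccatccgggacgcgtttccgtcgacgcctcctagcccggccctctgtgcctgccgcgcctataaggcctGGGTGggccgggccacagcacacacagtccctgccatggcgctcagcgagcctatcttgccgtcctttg
Klf9, chr19:23140976-23141275, plus strand: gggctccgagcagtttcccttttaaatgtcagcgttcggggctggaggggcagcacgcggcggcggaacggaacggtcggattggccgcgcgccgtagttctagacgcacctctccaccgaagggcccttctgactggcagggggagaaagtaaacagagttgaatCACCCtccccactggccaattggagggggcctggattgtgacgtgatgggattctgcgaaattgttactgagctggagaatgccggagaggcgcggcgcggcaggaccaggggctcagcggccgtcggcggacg
Klf17, chr4:117765617-117765916, minus strand: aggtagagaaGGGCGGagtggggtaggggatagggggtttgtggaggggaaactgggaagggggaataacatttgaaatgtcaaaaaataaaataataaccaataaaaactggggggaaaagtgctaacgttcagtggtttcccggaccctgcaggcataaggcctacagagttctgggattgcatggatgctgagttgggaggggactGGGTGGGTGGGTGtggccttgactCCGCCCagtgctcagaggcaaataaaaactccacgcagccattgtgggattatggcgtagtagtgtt
The Klf2 window holds 1 CACCC and 2 GGGCGG, the Klf9 window 1 and 0, and the Klf17 window 3 and 2, of which the CACCC matches of Klf17 lie side by side in 1 run. The window of Klf3, which also differed between light and control, is not shown and holds 5 and 6. Searched the same way on both strands, CACCC was present in 57.5% and GGGCGG in 35.7% of 32851 windows of this length. A match describes the letters only.

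**Figure D1:**
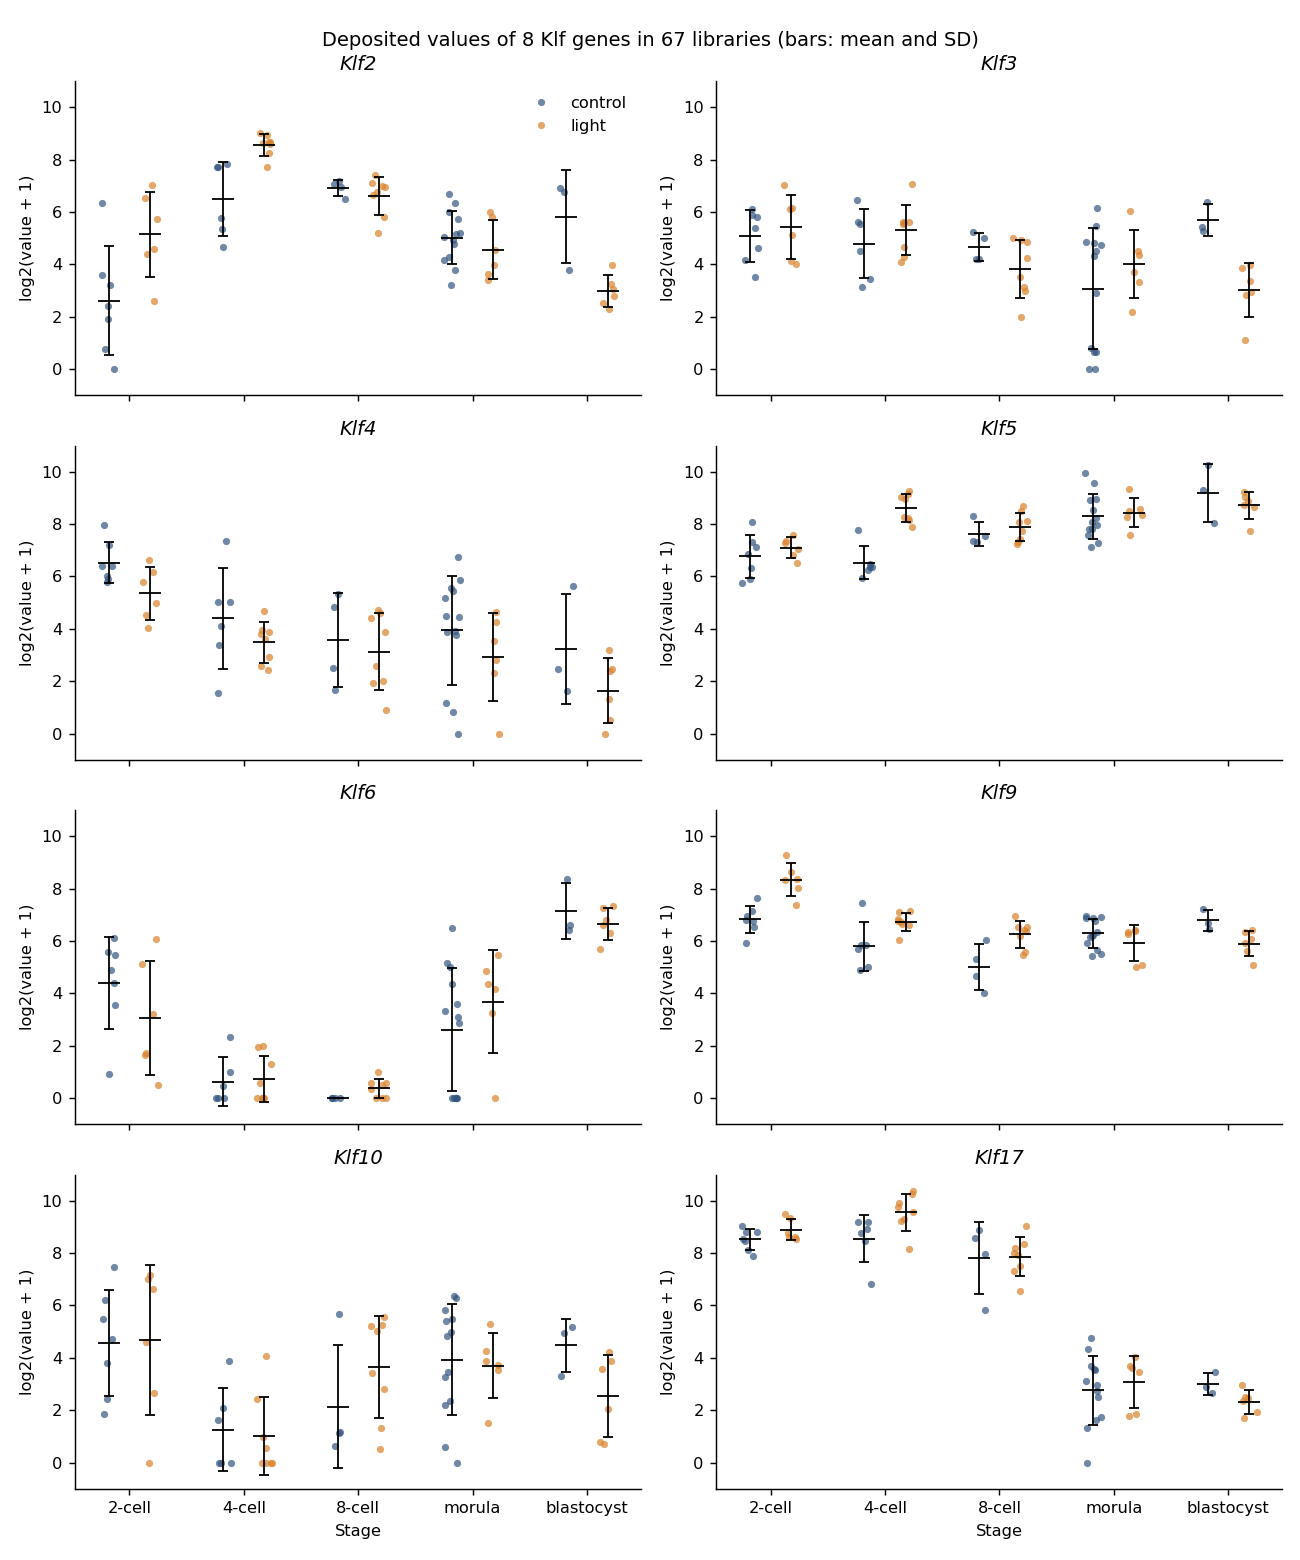
Deposited values of the 8 genes as log2(value + 1) in each of the 67 libraries, by stage, with control in blue and light in orange. Bars give the mean and SD of each group. Klf17 fell between the 8-cell stage and the morula in both groups, Klf6 was lowest at the 4-cell and 8-cell stages, and the light libraries of the 4-cell stage lay high for Klf2 and Klf5.

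Per kilobase of exon, Klf17 had the highest mean of the 8 genes at the 2-cell, 4-cell and 8-cell stages in both groups, and Klf5 had the highest in morulae and blastocysts of both groups. In control libraries the value per kilobase of Klf17 was 158 ± 42.0 (SD, n = 7) at the 2-cell stage and 3.50 ± 3.09 (SD, n = 13) in morulae. That of Klf5 was 24.0 ± 14.6 (SD, n = 7) at the 2-cell stage and 135 ± 92.5 (SD, n = 3) in blastocysts. The second place was held by Klf2 at the 4-cell and 8-cell stages and in morulae of both groups. Klf3 lay between 0.761 and 4.95 per kilobase as a group mean, over 11243 bases of annotated exons, the longest of the 8 genes. In control 4-cell embryos Klf6 (0.207) and Klf10 (0.758) lay below Klf3 (3.26). In control 4-cell embryos the neighbours Klf5, with 19.3 ± 11.1 (SD, n = 6), Klf9, with 13.8 ± 11.5 (SD, n = 6), and Klf4, with 13.8 ± 19.6 (SD, n = 6), lay within each other's SD.

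Between light and control within a stage, 5 of 39 tests of the 8 genes were called. Calls required at least a 2-fold change and, in limma, an adjusted p under 0.05 over all genes tested. At the 2-cell stage 1 of 8 was called (Klf9, higher), against 10.5% of all genes tested. At the 4-cell stage 2 of 8 were called (Klf2 and Klf5, both higher), against 1.45% of all genes. At the 8-cell stage 0 of the 7 tested were called, against 9.21% of all genes, while 1 had an unadjusted p under 0.05. In morulae 0 of 8 were called, against 1.18% of all genes, and 0 had an unadjusted p under 0.05. In blastocysts 2 of 8 were called (Klf2 and Klf3, both lower), against 5.34% of all genes. The split of all called genes moved with the scaling: in blastocysts 45 were higher and 635 lower on the deposited scale and 126 and 146 under median-ratio scaling, in morulae 54 and 125 became 139 and 139, and at the 8-cell stage 819 higher of 1276 called became 650 higher of 1275. Fold changes are on the log2(value + 1) scale, which understates the change of low genes. Members whose light and control libraries did not overlap numbered 0 for 2-cell embryos, against 4.15% of all genes, 0 for 8-cell embryos, against 5.61%, and 0 for morulae, against 0.552%. edgeR and DESeq2 on recovered reads called 0 at the 8-cell stage and 0 in morulae as well.

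**Figure D2:**
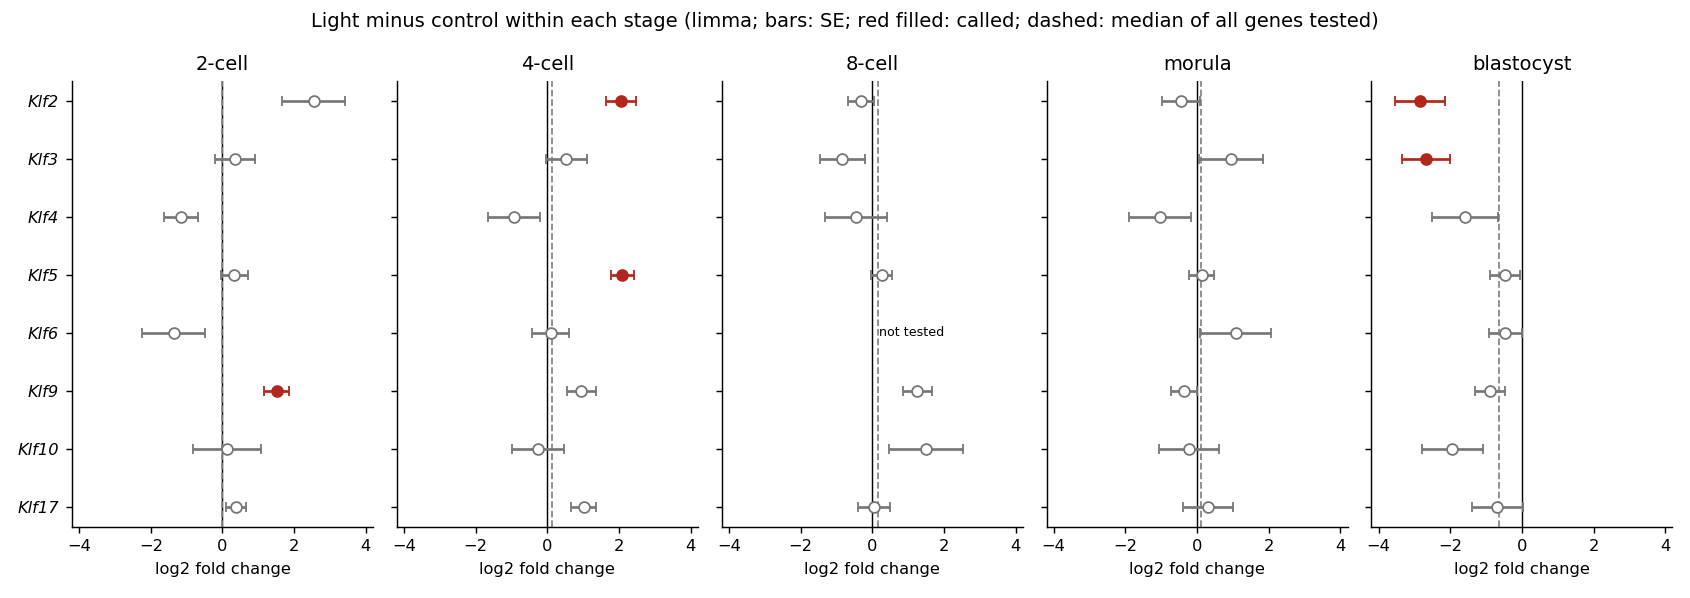
Log2 fold change of light against control for each gene within each stage, with its SE, from limma. Red filled points were called, and the dashed line is the median of all genes tested, which was -0.64 in blastocysts. The called genes are Klf9 at the 2-cell stage, Klf2 and Klf5 at the 4-cell stage, and Klf2 and Klf3 in blastocysts.

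From stage to stage, 22 of 63 tests were called. The median log2 fold change of all genes tested was -0.72, -0.56, 0.04 and 0.28 over the control steps in order of stage. Over the light steps it was -0.56, -0.45, -0.05 and -0.45, and the fold changes of members given below include it. In the light step to the 8-cell stage 94 genes were called higher and 1508 lower on the deposited scale. Under median-ratio scaling these were 161 and 223. In control embryos 4 of 8 genes were called from the 2-cell to the 4-cell stage, against 46.1% of all genes tested. From the 4-cell to the 8-cell stage 0 of 7 were called, against 6.31%, with 1 at an unadjusted p under 0.05. DESeq2 called 1 there, Klf5. From the 8-cell stage to the morula 2 of 8 were called, against 14.3%, and from the morula to the blastocyst 1 of 8, against 11.9%. In light embryos the counts were 6 of 8, against 36.5%, 4 of 8, against 10.6%, 3 of 8, against 11.8%, and 2 of 8, against 20.7%, in the same order of steps. Between control stages 0 members were free of overlap in the steps to the 4-cell stage, against 20.4% of all genes, the 8-cell stage, against 6.79%, and the blastocyst, against 7.88%.

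**Figure D3:**
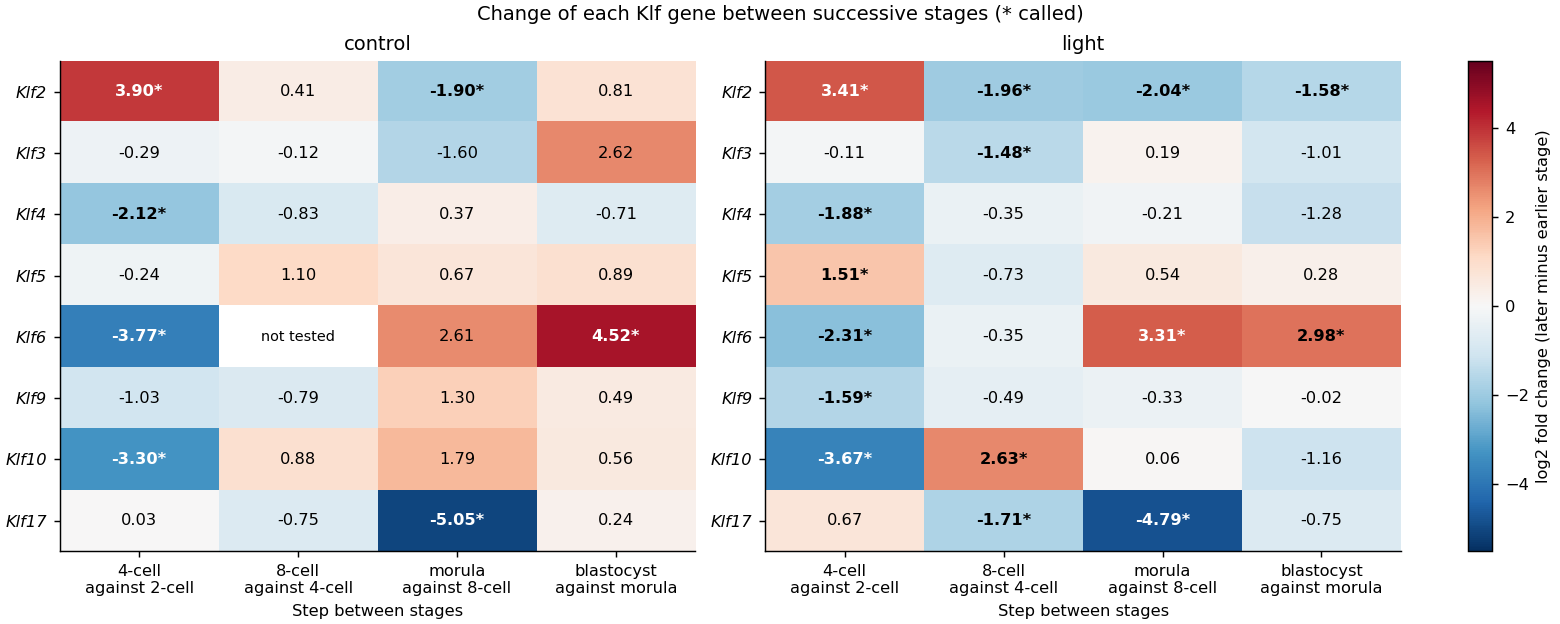
Log2 fold change of each gene from one stage to the next in control and light embryos, as the later minus the earlier stage. Bold values with an asterisk were called. The fall of Klf17 to the morula was -5.05 in control and -4.79 in light embryos, and Klf2 rose to the 4-cell stage by 3.90 and 3.41.

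Klf17 is a factor of the egg and the early cleavage embryo, with a known role around zygotic genome activation. Its values in control embryos ran from 238 to 521 (median 369) at the 2-cell stage and from 111 to 584 (median 463) at the 4-cell stage. The 4 control 8-cell libraries had 466.5, 385, 250 and 55.1. In morulae they ran from 0 to 25.9 (median 6.71). Every control 8-cell library lay above every control morula library. Its log2 fold change to the morula was -5.05 (SE 0.77, adjusted p = 5.25e-05, limma), and it stayed called in 17 of 17 fits with 1 library left out. In light embryos the values ran from 93.2 to 520 (median 249) at the 8-cell stage and from 2.42 to 15.2 (median 10.6) in morulae, again with no overlap. There Klf17 fell by 4.79 (SE 0.41, adjusted p = 1.32e-08, limma), after a fall by 1.71 from the 4-cell to the 8-cell stage (SE 0.29, adjusted p = 0.000249, limma). Klf17 was the 1 member that did not overlap between these stages in either group, against 5.02% of all genes in control and 3.57% in light. Its earlier change in light embryos, from the 2-cell to the 4-cell stage, was 0.67 (SE 0.27, adjusted p = 0.0512, limma) and missed the threshold. Median-ratio scaling, CPM scaling, edgeR and DESeq2 called that change. A pseudocount of 0.1, no filter and 1 fit over all libraries did not.

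No difference in Klf17 between light and control was called at any stage. The closest was the 4-cell stage, where light libraries ran from 282 to 1329 (median 812) and the log2 fold change was 1.01 (95% interval 0.32 to 1.70, adjusted p = 0.137, limma). The groups overlapped. In morulae the 95% interval of the log2 difference ran from -1.08 to 1.69, so a difference of that size in either direction cannot be told apart from none at this depth and number of libraries.

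Klf2 is one of the naive pluripotency factors and was nearly silent in control 2-cell embryos. The 7 control libraries ran from 0 to 79.6 (median 4.35), with 6 of them at or below 11.1 and replicate 12 at 79.6. The 6 light libraries ran from 5.01 to 130 (median 38.0). The groups overlapped, and the log2 fold change of 2.54 (SE 0.87) missed the threshold (adjusted p = 0.056, limma). It was called when the libraries were scaled by median ratio (2.58, adjusted p = 0.0431, limma) and without control replicate 12 or light replicate 15. CPM scaling, 1 fit over all libraries and DESeq2 called it as well. It stayed uncalled with a pseudocount of 0.1, without a filter and by edgeR.

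At the 4-cell stage the control libraries were uneven, since replicates 1, 2 and 3 had Klf2 values of 211, 227 and 207, and replicates 4, 5 and 6 had 53.8, 24.6 and 39.4. The summed inner cell mass markers of these libraries were 95.6, 337 and 253 CPM in replicates 1, 2 and 3 and 1446, 929 and 1098 CPM in replicates 4, 5 and 6, and their part in the Klf2 values was not tested. The 8 light libraries ran from 207 to 522 (median 404). The lowest light library lay within the range of the 3 high control libraries, and the other light libraries lay above all 6 controls. Light exceeded control by 2.05 on the log2 scale (SE 0.43, adjusted p = 0.0176, limma), and it stayed called in 14 of 14 fits with 1 library left out. edgeR on recovered reads gave 1.46 and did not call it (adjusted p = 0.0866), while DESeq2 gave 1.496 and did (adjusted p = 0.0429).

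From the 2-cell to the 4-cell stage Klf2 rose by 3.90 in control (SE 0.86, adjusted p = 0.000828, limma) and by 3.41 in light embryos (SE 0.45, adjusted p = 9.43e-07, limma). In light embryos the lowest 4-cell library (207) lay above the highest 2-cell library (130). Klf2, Klf5 and Klf9 were the 3 members without overlap in that step on the deposited scale, against 13% of all genes, and on the CPM scale Klf9 overlapped. In control embryos the 4 libraries of the 8-cell stage had 145, 122, 89.4 and 131, and the log2 change was 0.41 (adjusted p = 0.73, limma). In light embryos it fell by 1.957 (SE 0.27, adjusted p = 2.61e-05, limma) to values from 35.6 to 167 (median 115). Klf2 was the 1 member whose light libraries of these stages did not overlap on the deposited scale, against 2.2% of all genes, and on the CPM scale they overlapped between 225 and 257. The change differed between light and control by -2.37 (SE 0.61, adjusted p = 0.0208, limma). edgeR (-1.75, adjusted p = 0.0818), DESeq2 (-1.86, adjusted p = 0.0535) and 1 limma fit over all libraries (adjusted p = 0.147) did not call that difference.

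Later, Klf2 fell from the 8-cell stage to the morula by 1.90 in control (SE 0.55, adjusted p = 0.0199, limma) and by 2.04 in light embryos (SE 0.43, adjusted p = 0.00197, limma). The control call was lost without control 8-cell replicate 1, 2 or 4. From the morula to the blastocyst it fell by 1.58 in light embryos (SE 0.58, adjusted p = 0.048, limma), a call kept in 4 of 12 fits with 1 library left out and lost under all 7 other ways of processing. Median-ratio scaling, edgeR and DESeq2 called Klf5 in that step instead (higher, 1.02, adjusted p = 0.018, limma, under median-ratio scaling). In blastocysts the 3 control libraries had Klf2 values of 107, 121 and 12.8, and the 6 light libraries ran from 3.92 to 14.7 (median 6.61). The first 2 control libraries lay far above every light library and the third lay among them. The log2 fold change was -2.84 (SE 0.70, adjusted p = 0.0225, limma), or -2.20 relative to the median of all genes. The call was lost without control replicate 1 (adjusted p = 0.0979, limma) or control replicate 2 (adjusted p = 0.177, limma), and when scaled by median ratio (-2.22, adjusted p = 0.0937, limma). It was also lost without a filter and under CPM scaling. With a pseudocount of 0.1, in 1 fit over all libraries, by edgeR and by DESeq2 it was kept.

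Klf5 acts in both the pluripotent and the trophectoderm lineages. Control 4-cell libraries had Klf5 values from 60.5 to 217 (median 80.7), of which replicate 3 had 217 and the other 5 had at most 88.1. The 8 light libraries ran from 236 to 607 (median 400.5). On the deposited scale every light library lay above every control library, and Klf5 was the 1 member without overlap at this stage, against 0.56% of all genes. On the CPM scale the groups overlapped, with control up to 259 and light from 249. The log2 fold change was 2.09 (SE 0.33, adjusted p = 0.00453, limma), a 4.26-fold difference on that scale. It was called in 14 of 14 fits with 1 library left out, by edgeR (1.97, adjusted p = 0.00982) and by DESeq2 (2.02, adjusted p = 7.03e-05). Control replicate 3 had a median correlation of 0.844 to the light libraries and 0.788 to the other control libraries, while in the other 5 control libraries the 2 medians lay within 0.729 to 0.793. Replicates 1 and 2 were the least like either group, at 0.729 to 0.737. Without replicate 3 the log2 fold change was 2.34 for Klf5 (adjusted p = 0.000174, limma) and 2.29 for Klf2 (adjusted p = 0.00397, limma). The read ratio of Gm42418 to CT010467.1 was 1.61 to 4.55 in control and 1.43 to 1.63 in light 4-cell libraries, and its part in both results was not tested.

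The 2-cell libraries of the groups had not differed in Klf5 beyond their spread: control values ran from 53.1 to 271 (median 116) and light values from 90.5 to 191 (median 143), with a log2 fold change of 0.34 (95% interval -0.41 to 1.08). Light embryos rose by 1.51 to the 4-cell stage (SE 0.27, adjusted p = 6.91e-05, limma), and the change in control was -0.24 (adjusted p = 0.677, limma). The difference between these changes was 1.76 (SE 0.51, adjusted p = 0.0488, limma), and it stayed called in 5 of 27 fits with 1 library left out. At the 8-cell stage the 4 control libraries had 317, 164, 183 and 158 and the light libraries ran from 149 to 412 (median 241), so the groups overlapped again (log2 fold change 0.26, adjusted p = 0.624, limma). The change from the 4-cell to the 8-cell stage differed between light and control by -1.83 (SE 0.46, adjusted p = 0.0168, limma), a call that was lost without control 8-cell replicate 1. Both differences share the 4-cell libraries. Of the 3 tests called among 32 of a difference in change, Klf5 had 2 and Klf2 had 1. The background was 3.07% of all genes from the 2-cell to the 4-cell stage, 3.8% to the 8-cell stage, 2.62% to the morula and 1.57% to the blastocyst, and 0 members were called in the last 2 steps by limma, with 1 and 2 at an unadjusted p under 0.05.

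In blastocysts Klf5 was the most abundant of the 8 per kilobase. The 3 control libraries had values of 262, 622 and 1215, and the light libraries ran from 212 to 603 (median 444). The log2 fold change was -0.48 on the deposited scale and 0.19 when scaled by median ratio, neither called, so its sign depends on the scaling.

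Klf4, the third factor of the naive pluripotency group, was highest at the 2-cell stage. Control libraries ran from 54.5 to 249 (median 83.3) there and light libraries from 15.5 to 97.4 (median 42.4). The groups overlapped, with a log2 fold change of -1.17 (95% interval -2.10 to -0.24, adjusted p = 0.108, limma). From the 2-cell to the 4-cell stage Klf4 fell by 2.12 in control (SE 0.69, adjusted p = 0.0164, limma) and by 1.88 in light embryos (SE 0.54, adjusted p = 0.00666, limma). The control fall was not called by edgeR (-1.15, adjusted p = 0.152) or DESeq2 (-1.06, adjusted p = 0.191), and control 4-cell replicate 1 had 162 while the other 5 had at most 31.3. The 3 control blastocyst libraries had 48.4, 2.09 and 4.49, so 1 library set that group's mean.

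Klf9, also known as basic transcription element-binding protein, is a glucocorticoid-responsive member that can recruit SIN3. At the 2-cell stage control libraries ran from 59.9 to 199 (median 111) and light libraries from 166 to 618 (median 322). Light libraries were high and the ranges overlapped only between 166 and 199, with 1 library of each group in that span. Light exceeded control by 1.51 on the log2 scale (SE 0.34, adjusted p = 0.00344, limma), and it stayed called in 13 of 13 fits with 1 library left out, by edgeR (1.47, adjusted p = 0.00127) and by DESeq2 (1.53, adjusted p = 1.22e-05). Summed oocyte markers moved with the groups at this stage, from 1786 to 4099 CPM in control and from 478 to 1656 CPM in light libraries, and their part in the result was not tested.

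Klf9 then fell in light embryos by 1.59 to the 4-cell stage (SE 0.29, adjusted p = 8.33e-05, limma), with no overlap on the deposited scale and with overlap between 140 and 162 on the CPM scale. The control change was -1.03 (adjusted p = 0.0711, limma), and the difference between the changes was -0.56 (adjusted p = 0.616, limma). At the 8-cell stage the 4 control libraries had 24.1, 38.9, 15.1 and 64.2 and the light libraries ran from 42.9 to 123 (median 83.9). The log2 fold change of 1.25 (SE 0.41) missed the threshold (adjusted p = 0.0517, limma). It was called in 1 fit over all libraries and in 3 of 12 fits with 1 library left out. Summed transient 2-cell markers were 40.5 to 229 CPM in control and 0.894 to 75.7 CPM in light 8-cell libraries, and their part was not tested. From the 8-cell stage to the morula the control change of Klf9 was 1.30 (SE 0.45, adjusted p = 0.0501, limma) and missed the threshold. That change was called without a filter and in 1 fit over all libraries.

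In blastocysts Klf9 values were 85.7, 147 and 103 in control and 33.2 to 83.8 (median 62.6) in light libraries. The groups did not overlap on the deposited scale and did on the CPM scale, and the log2 fold change of -0.88 was not called (adjusted p = 0.209, limma). Klf3 and Klf9 were the 2 members without overlap in blastocysts, against 12.5% of all genes.

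Klf3 is a repressor that recruits CtBP. In blastocysts the 3 control libraries had Klf3 values of 37.3, 82.1 and 42.4, and the light libraries ran from 1.16 to 14.7 (median 7.98). All 3 control libraries lay above all 6 light libraries, also on the CPM scale, where control ran from 57.8 to 110.03 and light from 2.80 to 45.1. Its log2 fold change was -2.68 (SE 0.68, adjusted p = 0.0248, limma), or -2.04 relative to the median of all genes. The call was lost without control replicate 2 (adjusted p = 0.163, limma), when scaled by median ratio (-2.04, adjusted p = 0.113, limma), and by edgeR (-1.84, adjusted p = 0.166) and DESeq2 (-1.84, adjusted p = 0.0954). The other processing alternatives, a pseudocount of 0.1, no filter, CPM scaling and 1 fit over all libraries, did not call it either. In light embryos Klf3 also fell by 1.48 from the 4-cell to the 8-cell stage (SE 0.48, adjusted p = 0.0375, limma), a call kept in 7 of 16 fits with 1 library left out. It held with a pseudocount of 0.1 and was lost under each of the other alternatives, among them median-ratio scaling (-0.92, adjusted p = 0.288, limma).

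Summed markers of the blastocyst lineages were set beside these values. All 10 trophectoderm markers were detected in each blastocyst group, and their summed level was 987, 4292 and 9221 CPM in control replicates 1, 2 and 3 and 10087 to 14564 CPM in light libraries. The 6 inner cell mass markers summed to 3104, 1388 and 369 CPM in the same control libraries and to 302 to 531 CPM in light. Primitive endoderm markers, 8 in number, summed to 1493 to 2426 CPM (median 1756) in control and 1723 to 4164 CPM (median 3047) in light, with overlap. Control replicate 3, with the Klf2 value of 12.8, had the highest trophectoderm and lowest inner cell mass sum of the 3, while its Klf3 value of 42.4 lay above every light library. The part of cell type in the Klf2 and Klf3 results was not tested. All 8 members had estimates below 0 on the deposited scale, with a median of -1.24 against -0.64 for all genes.

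**Figure D4:**
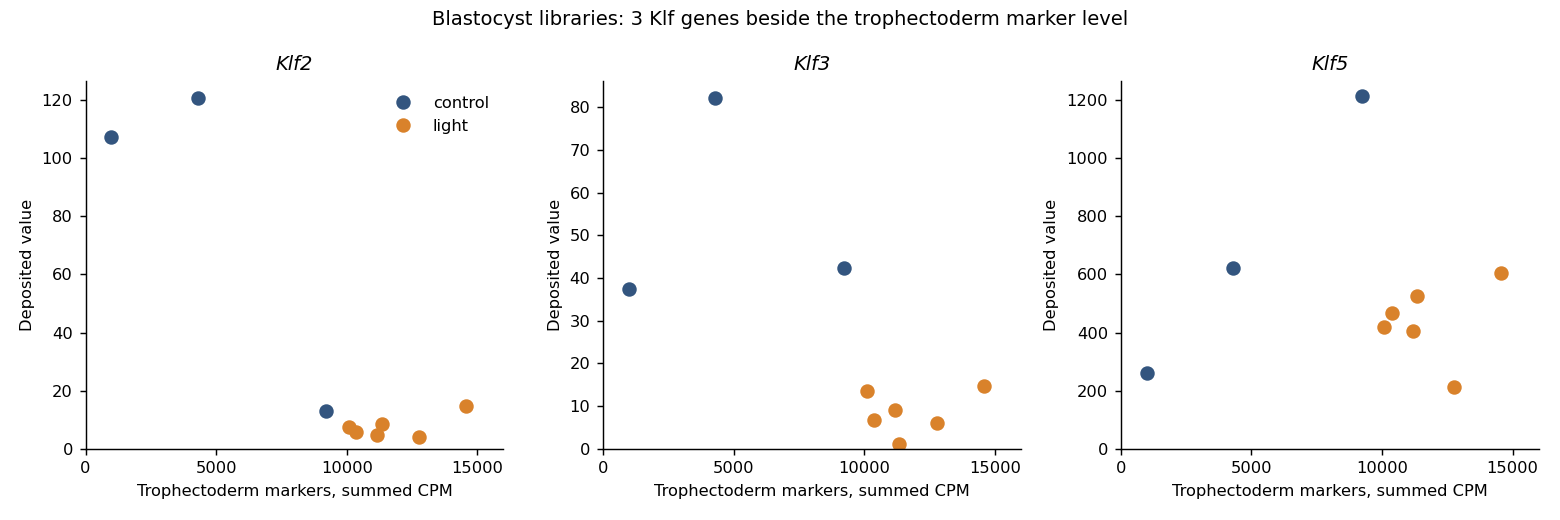
Deposited values of Klf2, Klf3 and Klf5 in the 9 blastocyst libraries against the summed CPM of 10 trophectoderm markers. The control library with 9221 CPM of markers had a Klf2 value of 12.8, within the light range, and a Klf3 value of 42.4, above it.

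Klf10, known as a TGF-beta inducible early gene, and Klf6, an activator induced by injury and growth signals in other tissues, were detected unevenly. Klf10 was at 0 in 9 and Klf6 in 20 of the 67 libraries. Klf10 ran from 2.61 to 175 (median 25.2) in control and from 0 to 144 (median 60.2) in light 2-cell libraries, and at the 4-cell stage from 0 to 13.7 and from 0 to 15.9. It fell by 3.30 in control (SE 0.91, adjusted p = 0.00546, limma) and by 3.67 in light embryos (SE 0.94, adjusted p = 0.00268, limma). In light embryos it then rose by 2.63 to the 8-cell stage (SE 0.78, adjusted p = 0.0223, limma), to values from 0.424 to 45.7 (median 20.6). edgeR did not call that rise (3.07, adjusted p = 0.0763). The call was also lost without a filter, in 1 fit over all libraries and with a block for the replicate numbers. The 4 control 8-cell libraries had 49.98, 0.532, 1.16 and 1.25, and the difference between the changes of the groups was not called (1.75, adjusted p = 0.522, limma).

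Klf6 values ran from 0.869 to 67.7 (median 28.5) in control and from 0.413 to 66.1 (median 5.30) in light 2-cell libraries, overlapping throughout. By the 4-cell stage it had fallen by 3.77 in control (SE 0.80, adjusted p = 0.00059, limma) and by 2.31 in light embryos (SE 0.76, adjusted p = 0.0171, limma), and the light call was lost without light 2-cell replicate 16. It had 0 reads in all 4 control 8-cell libraries and at most 1 read in each of the 8 light ones, so it was not tested between the groups at that stage and no fold is given. In light morulae it ran from 0 to 43.7 (median 18.3). The rise from the 8-cell stage in light embryos was called, and its size depended on the pseudocount (3.31 with 1, 4.79 with 0.1). In control embryos, against 8-cell libraries that were all at 0, the same step gave 2.61 and was not called (adjusted p = 0.116, limma), while edgeR (adjusted p = 0.0426), DESeq2 (adjusted p = 0.00371) and 1 limma fit over all libraries (adjusted p = 0.022) called it. No fold is read from these estimates.

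The 3 control blastocyst libraries had Klf6 values of 84.2, 97.1 and 327, and the light ones ran from 50.6 to 160 (median 103). Klf6 rose from the morula by 4.52 in control (SE 1.25, adjusted p = 0.0178, limma) and by 2.98 in light embryos (SE 0.59, adjusted p = 0.000383, limma). The control call was lost without control blastocyst replicate 2 or 3, with a pseudocount of 0.1 and by DESeq2 (adjusted p = 0.143). DESeq2 called Klf5 in that control step instead. In light embryos every blastocyst library lay above every morula library, and Klf6 was the 1 member of which this held, against 8.22% of all genes. Light and control blastocysts overlapped, and the log2 fold change of -0.47 turned to 0.19 when scaled by median ratio, neither called.

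**Figure D5:**
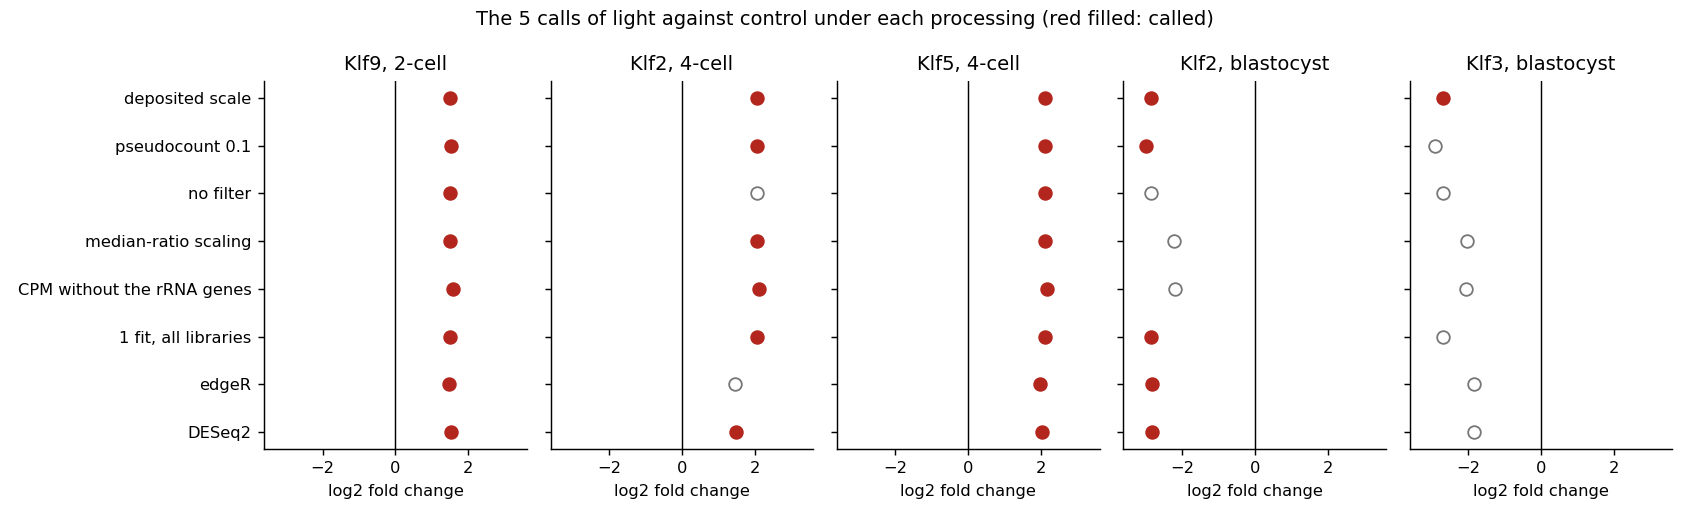
Log2 fold change of the 5 called differences between light and control under 8 ways of processing, where red filled points were called. Klf9 at the 2-cell stage and Klf5 at the 4-cell stage were called under each of them, and Klf2 at the 4-cell stage was not called without a filter and by edgeR. In blastocysts the Klf2 call was lost without a filter and under median-ratio and CPM scaling. Klf3 in blastocysts was called only in the fit labelled deposited scale.

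Of the other KLF genes, 6 of 9 listed were tested at the 2-cell stage, where 1 was higher and 1 lower in light embryos, against 10.5% of all genes called. Klf16 had values of 177 ± 70.8 (SD, n = 7) in control and 377 ± 107 (SD, n = 6) in light libraries (log2 fold change 1.12, SE 0.31, adjusted p = 0.016, limma). Klf7 had 108 ± 54.7 (SD, n = 7) and 22.3 ± 9.81 (SD, n = 6), a log2 fold change of -2.19 (SE 0.48, adjusted p = 0.00278, limma). Klf16 was also higher at the 4-cell stage, with 1 of 6 tested called, against 1.45% of all genes (1.65, adjusted p = 0.0363, limma). At the 8-cell stage and in morulae 0 of 5 and 0 of 6 were called by limma, and in blastocysts Klf8 was lower (-2.84, adjusted p = 0.0384, limma), as 1 of 7 against 5.34%.

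The SP genes encode the closest relatives of the family and bind the same GC boxes. Sp3 was higher (1.54, adjusted p = 0.0493, limma) and Sp8 lower (-3.36, adjusted p = 0.00689, limma) in light 2-cell embryos, as 2 of 8 tested against 10.5% of all genes, and Sp6 was higher at the 4-cell stage (2.37, adjusted p = 0.0176, limma), as 1 of 6 against 1.45%. By limma 0 of 5, 0 of 4 and 0 of 5 were called at the 8-cell stage, in morulae and in blastocysts. Among 15 cofactors and ubiquitin ligases of the family, Crebbp, which encodes the acetyltransferase CBP, was lower in light embryos at the 2-cell stage (-1.24, adjusted p = 0.000316, limma), where 2 of 15 were called, the 8-cell stage (-1.39, adjusted p = 0.000944, limma) and in morulae (-1.43, adjusted p = 0.021, limma). Ep300, which encodes its close relative p300, was lower at the 8-cell stage (-1.29, adjusted p = 0.000977, limma). In blastocysts Ctbp2, a corepressor partner of Klf3, was lower (-1.497, adjusted p = 0.0478, limma), as was Kat2b (-3.31, adjusted p = 0.0165, limma). The other called gene at the 2-cell stage was Fbxw7, a ubiquitin ligase subunit, which was lower (-2.75, adjusted p = 0.0258, limma). At the 4-cell stage Siah1a, also a ubiquitin ligase, was higher (3.43, adjusted p = 0.0164, limma), as 1 of 15 against 1.45% of all genes. Called counts at the other stages were 2 of 14 at the 8-cell stage, against 9.21%, 1 of 15 in morulae, against 1.18%, and 2 of 15 in blastocysts, against 5.34%. The median over the list was -0.28, 0.39, 0.55, -0.26 and -0.85 over the 5 stages from 2-cell embryos to blastocysts, where all genes had 0.00, 0.13, 0.16, 0.10 and -0.64.

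Of the naive pluripotency genes, which share their circuit with Klf2, Klf4 and Klf5, 4 of 11 tested were higher in light 8-cell embryos, against 9.21% of all genes called, with Pou5f1 (2.07, adjusted p = 0.000532, limma) and Tbx3 (2.62, adjusted p = 0.00104, limma) among them. At the 2-cell and 4-cell stages 0 of 11 were called by limma, and in morulae Nanog was lower (-3.04, adjusted p = 0.0388, limma), as 1 of 11 against 1.18%. In blastocysts 6 of 11 were lower, against 5.34%, led by Nanog (-4.48, adjusted p = 0.00243, limma) and Tdgf1 (-4.21, adjusted p = 0.0168, limma), where the median was -1.23 against -0.64 for all genes. Nanog, Tdgf1, Sox2 and Pou5f1 among them are also inner cell mass markers, so this count repeats in part the marker sums of these libraries. Tdgf1 had 321 ± 320 (SD, n = 3) in control blastocysts. The part of cell type in this count was not tested. Of 11 immediate early genes, 8 were tested at the 2-cell stage and Fosb was lower (-2.38, adjusted p = 0.012, limma), as 1 of 8 against 10.5%, and of 4 tested at the 4-cell stage Myc was higher (3.29, adjusted p = 0.0468, limma), as 1 of 4 against 1.45%. By limma 0 of 5 were called at the 8-cell stage, against 9.21%, 0 of 8 in morulae, against 1.18%, and 0 of 5 in blastocysts, against 5.34%.

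Over the 67 libraries, the gene most like Klf17 among 11227 searched was Rimklb (Pearson r = 0.92 on log2 values), followed by D7Ertd443e (r = 0.91). Within groups these fell to 0.15 and -0.07, so the likeness lay mainly between groups. For Klf2 the nearest were Igf2r (r = 0.81, and 0.41 within groups) and Gemin5 (r = 0.79, and 0.43 within groups). For Klf6 they were Mbp (r = 0.80, and 0.68 within groups) and Myh9 (r = 0.80, and 0.35 within groups). The highest r was lower for the other members: Get4 with Klf5 (0.70), Dcun1d5 with Klf9 (0.69), Shb with Klf4 (0.67), Taok2 with Klf3 (0.63) and Tram1 with Klf10 (0.61). Among the members themselves r ran from -0.61 for Klf2 with Klf6 to 0.47 for Klf3 with Klf17, and within groups no pair was beyond 0.255 in size. These values describe libraries that share their size factor and depth.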

How the data were processed

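Single cells of mouse embryos were profiled by SMART-seq2 in 67 libraries. Per the labels, the authors' processing used HISAT2, HTSeq 0.9.1 and mm9. The deposited signal values are reads divided by a size factor: they returned whole reads, within 0.01 reads, for at least 99.97% of values per library, and the values that were not whole lay in 11 genes, of which 0 were members. The methods describe RPKM, which these values are not, so the planned test on log values was kept.

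Models were fitted with limma 3.58.1 (R 4.3.3, lmFit and eBayes with trend) to log2(value + 1) for genes above 1 in at least 3 libraries compared, on the whole table, with Benjamini-Hochberg adjustment and no covariate. Steps were compared between groups by an interaction term. The code was tested on simulated data with 200 genes changed 4-fold. Alternatives were a pseudocount of 0.1, no filter, median-ratio scaling, CPM outside CT010467.1 and Gm42418, 1 fit over all libraries, a replicate block, edgeR 4.0.16, DESeq2 1.42.0 and each library left out. Figures and tables used Python 3.11.15, pandas 2.3.3 and matplotlib 3.10.9.

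Named were all members, the 2 genes most correlated with each, and up to 2 called genes per list and stage with the smallest p. The members and lists were chosen with earlier results of these data known. Exon lengths came from GENCODE M21, and no coordinates were joined to the authors' build. Total reads of 836011 to 8551674 per library limit the low genes.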

Additional observations from a re-analysis of the deposited data

Results flagged for a closer look

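Among 64 groups of 4 to 10 libraries examined, 12 held 1 library far from the others. The cut-off gives about 1 in 20 only for normally spread values. It was applied to the deposited values before the log, some of them from few reads. The count of 12 is therefore not read as an excess over chance. All 12 were the highest of their group. In control embryos these were Klf2 in 2-cell replicate 12 (79.6, next 11.1), Klf10 in 2-cell replicate 10 (174.9, next 72.4), Klf4 in 4-cell replicate 1 (161.9, next 31.3), Klf9 in 4-cell replicate 2 (176.3, next 57.1), Klf5 in 4-cell replicate 3 (217, next 88.1), Klf10 in 4-cell replicate 3 (13.7, next 3.28) and Klf6 in 4-cell replicate 5 (4.10, next 0.978). At the 8-cell stage control replicate 1 was high for Klf5 (316.5, next 183) and Klf10 (49.98, next 1.25). In light embryos they were Klf3 in 4-cell replicate 9 (133.8, next 48.7), Klf10 in 4-cell replicate 7 (15.9, next 4.41) and Klf3 in morula replicate 6 (65.3, next 21.5).

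Control 4-cell replicate 3 had a median correlation of 0.844 with the light libraries and 0.788 with the other control libraries of its stage. In the other 5 control libraries the 2 medians lay within 0.729 to 0.793. Klf5 and Klf2 stayed called without it.

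A change between stages differed between light and control in 3 tests of the interaction term. The difference was 1.76 for Klf5 from the 2-cell to the 4-cell stage, -1.83 for Klf5 from the 4-cell to the 8-cell stage and -2.37 for Klf2 from the 4-cell to the 8-cell stage.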

How the results depend on the processing

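Of the 30 called estimates 21 stayed called in every fit with 1 library left out, and no called estimate changed its sign under any alternative run. Counts of members called moved by more than 1.5 times as follows. Light against control: at the 2-cell stage (1) to 2 under median-ratio scaling, CPM, 1 fit over all libraries and DESeq2, at the 4-cell stage (2) to 1 without the filter and with edgeR, at the 8-cell stage (0) to 1 in 1 fit over all libraries, and in blastocysts (2) to 1 with the pseudocount of 0.1, 1 fit, edgeR and DESeq2 and to 0 without the filter, under median-ratio scaling and under CPM. Control steps: 4-cell to 8-cell (0) to 1 under median-ratio scaling, CPM and DESeq2, 8-cell to morula (2) to 4 in 1 fit, and morula to blastocyst (1) to 0 with the pseudocount and 2 in 1 fit. Light steps: 4-cell to 8-cell (4) to 2 without the filter, in 1 fit and with edgeR, and morula to blastocyst (2) to 1 with the pseudocount, without the filter, under CPM and in 1 fit. Differences in change: 2-cell to 4-cell (1) to 0 with the pseudocount and without the filter, and 4-cell to 8-cell (2) to 1 in 1 fit, with edgeR and with DESeq2. Smaller moves, by 1 member, were seen in the control steps to the 4-cell stage (4 to 3 or 5) and the morula (2 to 3) and in the light steps to the 4-cell (6 to 5 or 7) and 8-cell stage (4 to 3). The share of all genes called moved as well. For light against control at the 4-cell stage it went from 1.45% to 0.247% without the filter and to 5.02% in 1 fit. In the light step to the 8-cell stage it went from 10.6% to 1.63% with edgeR. The causes were not tested.

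With 1 library left out, the counts for light against control ranged from 1 to 2, 2 to 2, 0 to 1, 0 to 0 and 0 to 2 over the 5 stages. They ranged from 4 to 5, 0 to 1, 1 to 3 and 0 to 1 over the control steps, 5 to 6, 3 to 4, 3 to 3 and 1 to 2 over the light steps, and 0 to 1, 1 to 2, 0 to 0 and 0 to 0 over the differences in change.

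With the replicate block, the counts were 0 for light against control at the 2-cell and 4-cell stages, 0 for the control steps to the morula and the blastocyst, 0 and 2 for the light steps to the 4-cell and 8-cell stages, and 0 for both called differences in change. In the named comparisons of light against control, both control steps and the light step to the 4-cell stage, the block called 0 of all genes tested. A member count of 0 was therefore fixed there. The block called 1.06% of all genes in the light step to the 8-cell stage. For the differences in change to the 4-cell and the 8-cell stage it called 0.863% and 0.33%. Between light and control of 1 stage, 10 same-numbered pairs had deviations with r between -0.0873 and 0.0695, and 0 were most like their own number. Between neighbouring stages of 1 group, 19 such pairs had r between -0.0359 and 0.0272, and 5 were most like their own number. None passed 0.1, so the numbers were not taken as pairing the libraries, and the block left 1 to 9 residual degrees of freedom. No paired analysis was possible for light against control at the 8-cell and blastocyst stages, for the first control step and for the last light step because the groups share fewer than 2 numbers.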
